A study of Mus musculus with 6 samples.

Results

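SR proteins and hnRNP splicing regulators were examined as 40 genes, picked by gene name, out of 25576 genes listed in whole spinal cord. They comprise 13 SR-family genes, 17 hnRNP genes, the polypyrimidine tract binding genes Ptbp1 and Ptbp2, 5 tissue-restricted regulators (Rbfox1, Rbfox2, Rbfox3, Nova1 and Nova2), and Srrm1, Srrm2 and Khdrbs1. All 40 were found. Nova2 was listed under 2 gene identifiers at the same locus, which gives 41 rows for 40 members, and all 41 rows had a mean FPKM of 0.5 or more, the limit for testing.

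SR proteins carry an arginine- and serine-rich domain and in most settings bind exonic enhancers, where they help the spliceosome to recognise the exon. hnRNP proteins coat nascent transcripts, and many of them, such as hnRNP A1 and PTBP1, act from silencer elements to favour exon skipping. In neurons, PTBP2, the NOVA proteins and the RBFOX proteins set neuron-specific exon choices, whereas PTBP1 predominates in progenitors and many other cell types. The same families act on the human SMN2 gene, whose exon 7 is skipped in most transcripts: SRSF1, TRA2B and others have been described to act on its inclusion, and hnRNP A1, hnRNP A2/B1 and Sam68 (Khdrbs1) on its skipping.

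Bulk-seq covered 3 libraries of type I Taiwanese SMA mice (mSmn-/-, hSMN2 2tg/0) and 3 libraries of heterozygous control mice (mSmn+/-, hSMN2 2tg/0), strain FVB, taken from spinal cord at postnatal day 4. Both groups carry the human SMN2 transgene, and the control mice lack 1 of the mouse Smn alleles, so neither group is wild type. The paper describes triplicates with n = 1 per group, and whether the 3 libraries of a group come from 3 mice cannot be read from the labels. They are treated here as separate samples. Levels are given as FPKM (fragments scaled to exon length and to the mapped total), always in the order of replicates 1 to 3, and a difference as the log2 fold change of FPKM + 1, SMA minus control, from limma, with its standard error (SE). FPKM gives the level of a gene and not which exons its transcripts hold, and not the amount or phosphorylation of the protein.

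The group labels could not be checked on the knockout gene. Smn1 was at 10.4, 8.64 and 11.9 FPKM in the controls and at 8.48, 9.30 and 11.1 FPKM in the SMA libraries. The groups overlapped for Smn1. Neuronal, astrocyte and oligodendrocyte markers were present in all 6 libraries, led by Stmn2, Aldoc and Mbp in mean level.

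Control replicate 2 stood apart from the other libraries before any comparison of groups. Its correlation with the others over log2(FPKM + 1) was 0.836 to 0.849, against at least 0.983 among the other 5. The 11 hepatocyte markers took 8.22% of the FPKM of control replicate 2 and 0.0162 to 0.0340% of the other libraries, with Alb as the most abundant gene (15894 FPKM against 24.6 to 56.2). The 7 erythroid markers, led by Hbb-bs, summed to 4.55% of its FPKM against 0.304 to 0.516%, and the 7 neutrophil markers, led by S100a8, to 0.101% against 0.00146 to 0.00321%. The 8 neuron markers summed to 0.257% there and to 0.499 to 0.544% elsewhere, the 6 astrocyte markers to 0.135% against 0.205 to 0.228%, the 5 motor neuron markers to 0.0038% against 0.0065 to 0.010%, and the 6 proliferation markers, led by Pcna, to 0.0355% against 0.0100 to 0.0175%. Where the log2 fold change of a single member is printed over 6 libraries, the one without control replicate 2 is therefore given too. In whole tissue, fewer cells of a type and less RNA per cell cannot be told apart.

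As a group, the members were well expressed. Their mean FPKM over the libraries ran from 13.7 to 228, with a median of 45.2, above 92.2% of all genes tested (median 7.53 FPKM). Their share of all FPKM was 0.695, 0.584 and 0.716% for the controls and 0.708, 0.700 and 0.703% for the SMA libraries. The lowest share was in control replicate 2, and the other 5 libraries lay close together. Leaving out control replicate 2, the highest library stood a median of 1.15-fold above the lowest one over the 41 rows, and 40 of the 41 rows spanned less than 1.5-fold. With it, the median was 1.25-fold and 30 rows spanned less than 1.5-fold. The 5498 genes tested with a mean FPKM in the range of the members had medians of 1.18-fold without and 1.44-fold with control replicate 2, and 93.7% and 57.3% of them spanned less than 1.5-fold, against 97.6% and 73.2% of the member rows. Control replicate 2 was the lowest library for 18 rows and the highest for 9.

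**Figure D1:**
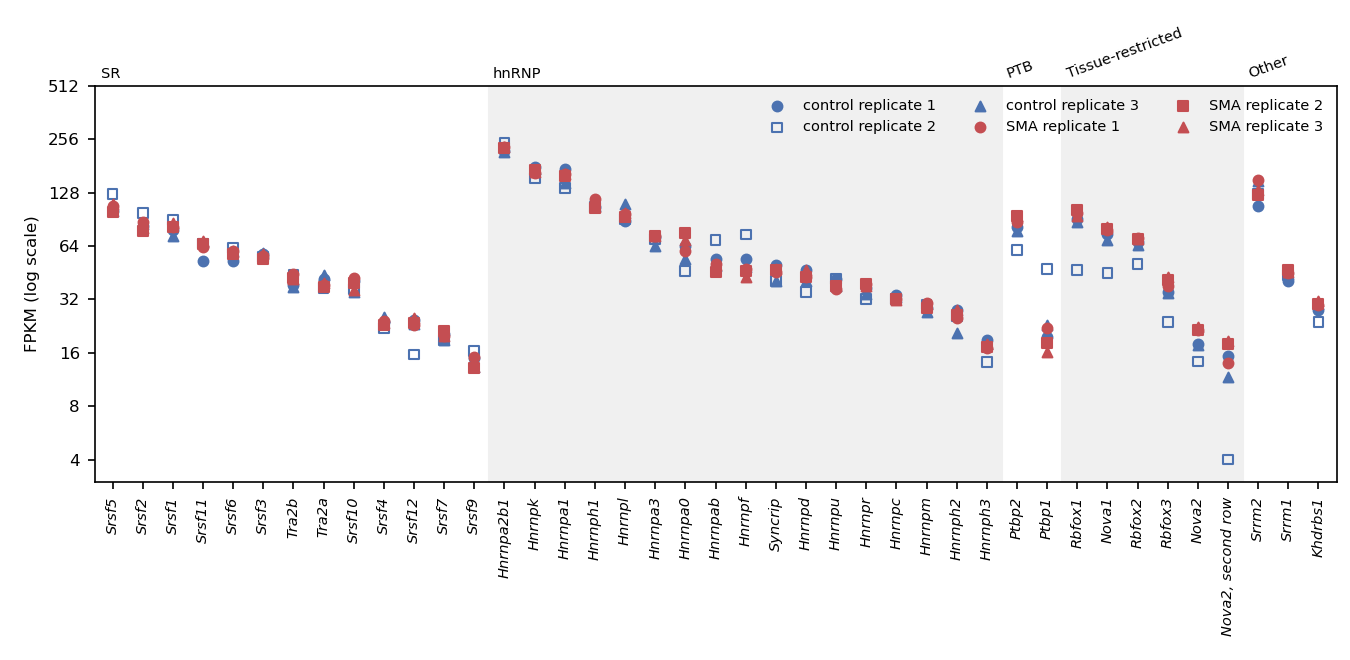
FPKM of every member in every library, on a log scale and ordered by mean level within each role. Blue symbols are control and red symbols SMA libraries, and the open square is control replicate 2. Nova2 appears on 2 rows. Most members show 6 nearly coinciding symbols, while the open square lies below the others for Rbfox1, Nova1, Rbfox3 and Ptbp2 and above them for Ptbp1, Hnrnpf and Hnrnpab.

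Levels of the SR family were close between the groups. Its members, in order of mean FPKM, were Srsf5, Srsf2, Srsf1, Srsf11, Srsf6, Srsf3, Tra2b, Tra2a, Srsf10, Srsf4, Srsf12, Srsf7 and Srsf9, from 108 down to 14.4 FPKM. Srsf5, the most abundant, was at 101, 125 and 101 FPKM in the controls and at 108, 99.9 and 110.1 FPKM in the SMA libraries. The highest value was in control replicate 2 and the groups overlapped, with a log2 fold change of -0.04 (SE 0.12), and 0.06 (SE 0.06) without control replicate 2. Srsf1, the classical SR protein SF2/ASF, was at 78.9, 89.9 and 72.9 FPKM in the controls and at 82.2, 81.6 and 85.9 FPKM in the SMA libraries. The SMA values lay between those of control replicate 2 and of the other controls. For Srsf1 the log2 fold change was 0.05 (SE 0.11, unadjusted p = 0.655) over 6 libraries and 0.13 (SE 0.06, unadjusted p = 0.0609) without control replicate 2. Over 6 libraries, none of the 13 SR members was lower or higher in SMA by limma at an unadjusted p under 0.05, beside 2.39% lower and 3.40% higher among all 17088 genes tested. The log2 fold changes of the 13 ranged from -0.11 to 0.19, with a median of 0.02 against 0.04 over all genes tested. That median was -0.03 after median ratio scaling and -0.0082 after quantile normalization, against -0.0044 and 0.07 over all genes tested. After scaling to the same total it was 0.05, against 0.06 over all genes tested. It was 0.04 without control replicate 2 and -0.02 without control replicate 1, against 0.0016 and 0.06 over all genes tested.

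Of the SR members, Tra2b was higher and Tra2a lower at an unadjusted p under 0.05 without control replicate 2, counts near the background given below; they are set side by side as a pair after their values were seen. Both are homologs of the fly sex-determination splicing factor Transformer-2 and bind purine-rich exonic enhancers. Tra2b was at 38.8, 43.9 and 37.6 FPKM in the controls and at 44.6, 42.0 and 41.7 FPKM in the SMA libraries. Tra2a was at 41.9, 37.0 and 43.7 FPKM in the controls and at 38.7, 37.4 and 39.5 FPKM in the SMA libraries. Against control replicates 1 and 3, every SMA library was higher for Tra2b and lower for Tra2a, but control replicate 2 lay on the SMA side of both genes. The ratio of Tra2b to Tra2a was 0.926, 1.19 and 0.860 in control and 1.15, 1.13 and 1.06 in SMA libraries. The log2 fold change without control replicate 2 was 0.16 for Tra2b (SE 0.06, unadjusted p = 0.0298) and -0.15 for Tra2a (SE 0.06, unadjusted p = 0.0377). Over 6 libraries they were 0.09 (SE 0.10, unadjusted p = 0.368) and -0.08 (SE 0.10, unadjusted p = 0.438). The limma p-values adjusted after Benjamini-Hochberg were 0.436 and 0.444 without control replicate 2. Against the background of 5.20% of 16574 genes tested that were lower and 5.27% that were higher at an unadjusted p under 0.05 in that comparison, 1 SR member of 13 was lower and 1 was higher.

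The 3 members with the highest mean FPKM were hnRNP genes. By mean FPKM the 17 hnRNP genes ran from Hnrnpa2b1 (228), Hnrnpk, Hnrnpa1 and Hnrnph1 through Hnrnpl, Hnrnpa3, Hnrnpa0, Hnrnpab, Hnrnpf, Syncrip, Hnrnpd, Hnrnpu, Hnrnpr, Hnrnpc, Hnrnpm and Hnrnph2 to Hnrnph3 (17.2). Hnrnpa2b1, which also sorts RNA for transport in neurites and oligodendrocyte processes, was at 219, 244 and 218 FPKM in the controls and at 231, 229.7 and 230.1 FPKM in the SMA libraries. Its log2 fold change was 0.03 (SE 0.11, unadjusted p = 0.820), with a 95% confidence interval from -0.23 to 0.28, and 0.08 (SE 0.05, unadjusted p = 0.177) without control replicate 2. Hnrnpa1, a silencer-bound repressor, was at 174, 136 and 146 FPKM in the controls and at 164, 158 and 163 FPKM in the SMA libraries. The SMA libraries lay inside the range of the controls, with a log2 fold change of 0.10 (SE 0.12, unadjusted p = 0.467). This depended on single libraries: it was 0.02 (SE 0.08) without control replicate 2 and 0.20 without control replicate 1. Hnrnpa1 has many processed pseudogenes, and how the submitters assigned reads that match more than 1 copy is not stated. The tightest member was Hnrnpc, with 1.06-fold between its highest and lowest library; it was singled out after its values were seen.

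No hnRNP gene was lower or higher at an unadjusted p under 0.05 over 6 libraries (background 2.39% lower and 3.40% higher) or without control replicate 2 (background 5.20% and 5.27%). The log2 fold changes ranged from -0.34 to 0.32 over 6 libraries and from -0.17 to 0.20 without control replicate 2, with medians of 0.05 and 0.02, against 0.04 and 0.0016 over all genes tested. After median ratio scaling the median was -0.0056, with 8 of 17 above 0, against -0.0044 over all genes tested. The ends of both ranges were Hnrnpf and Hnrnpa0, named after their values were seen. Hnrnpf, which binds G-rich sequences, was at 53.9, 74.2 and 48.6 FPKM in the controls and at 47.6, 46.2 and 42.9 FPKM in the SMA libraries. Every SMA value was below every control value, and control replicate 2 was the highest. The unadjusted p for Hnrnpf was 0.0795 (log2 fold change -0.34, SE 0.17) over 6 libraries, 0.0534 (-0.17) without control replicate 2 and 0.0301 (-0.47) without control replicate 3, and it was 0.0950 to 0.197 without any 1 of the other 4 libraries. With median ratio scaling and no control replicate 2, a setting chosen after seeing the data, it was 0.0444 (-0.17). Hnrnpa0 was at 64.2, 46.2 and 54.4 FPKM in the controls and at 60.3, 75.6 and 69.0 FPKM in the SMA libraries, with overlap between the groups. Its unadjusted p was 0.0765 (log2 fold change 0.32, SE 0.15) over 6 libraries and 0.0266 (0.43) without control replicate 1. It was 0.101 (0.20) without control replicate 2 and 0.0636 to 0.229 without any 1 of the other 4 libraries. For Srrm2, a scaffold protein of nuclear speckles, FPKM was 108, 125 and 149 in control and 149.9, 124 and 133 in SMA libraries (log2 fold change 0.09, SE 0.15, with and 0.09, SE 0.14, without control replicate 2). Srrm1, its partner in exon-bridging complexes, had a mean of 44.4 FPKM and a log2 fold change of 0.09 (SE 0.09), and 0.10 (SE 0.06) without control replicate 2.

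The tissue-restricted members and Ptbp2 had log2 fold changes above 0 with and without control replicate 2, from 0.21 to 0.81 over 6 libraries and from 0.09 to 0.30 without it. Nova2, an RNA-binding protein of neurons that acts on YCAY clusters, was at 17.9, 14.3 and 17.8 FPKM in the controls and at 21.6, 21.4 and 22.3 FPKM in the SMA libraries. Every SMA library was above every control (as for 10.3% of all genes tested), the 3 SMA values were close, and the lowest value was in control replicate 2. The group means were 16.7 ± 2.05 (SD) and 21.8 ± 0.474 FPKM (n = 3 each), with a log2 fold change of 0.37 (SE 0.11, unadjusted p = 0.0135; 0.27, SE 0.06, unadjusted p = 0.00333 without control replicate 2). The second Nova2 row, under an identifier that GENCODE M21 does not hold, was at 15.4, 4.00 and 11.7 FPKM in the controls and at 14.1, 17.9 and 18.8 FPKM in the SMA libraries, with overlap between the groups. Its log2 fold change was 0.81 (SE 0.42, unadjusted p = 0.0985), and 0.30 without control replicate 2. How reads were divided between the 2 Nova2 rows is not stated.

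Ptbp2, the neuronal paralog of Ptbp1, was at 81.9, 61.0 and 78.1 FPKM in the controls and at 87.3, 94.5 and 95 FPKM in the SMA libraries. Its groups did not overlap, and control replicate 2 was again the lowest. The log2 fold change was 0.33 (SE 0.13, unadjusted p = 0.0452) over 6 libraries and 0.20 (SE 0.06, unadjusted p = 0.0120) without control replicate 2. Rbfox3, the antigen of the NeuN antibody, was at 35.3, 23.9 and 34.7 FPKM in the controls and at 38, 41.2 and 42.8 FPKM in the SMA libraries. Rbfox1, expressed in neurons and muscle, was at 90.8, 46.9 and 87.3 FPKM in the controls and at 98.5, 102 and 94.4 FPKM in the SMA libraries. Nova1 was at 75.0, 44.9 and 69.6 FPKM in the controls and at 78.8, 79.8 and 82.3 FPKM in the SMA libraries. In each of these genes control replicate 2 was the lowest library and all SMA libraries lay above all controls, as they did for 10.3% of all genes tested, and for 14.2% without control replicate 2. Rbfox2, the family member with the broadest expression, had means of 61.1 ± 9 and 70.4 ± 0.599 FPKM (SD, n = 3 each; control mean 66.2 FPKM without control replicate 2), and its groups did not overlap either. Without control replicate 2, Rbfox3 (0.21, SE 0.07, unadjusted p = 0.0167), Nova1 (0.15, SE 0.06, unadjusted p = 0.0341) and Rbfox1 (0.14, SE 0.06, unadjusted p = 0.0428) passed an unadjusted p under 0.05, where 5.27% of all genes tested were higher, and Rbfox2 (0.09, SE 0.05, unadjusted p = 0.137) did not. With it, the log2 fold changes were larger and the errors wider: 0.39 (SE 0.16), 0.37 (SE 0.19), 0.45 (SE 0.25) and 0.21 (SE 0.13).

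**Figure D2:**
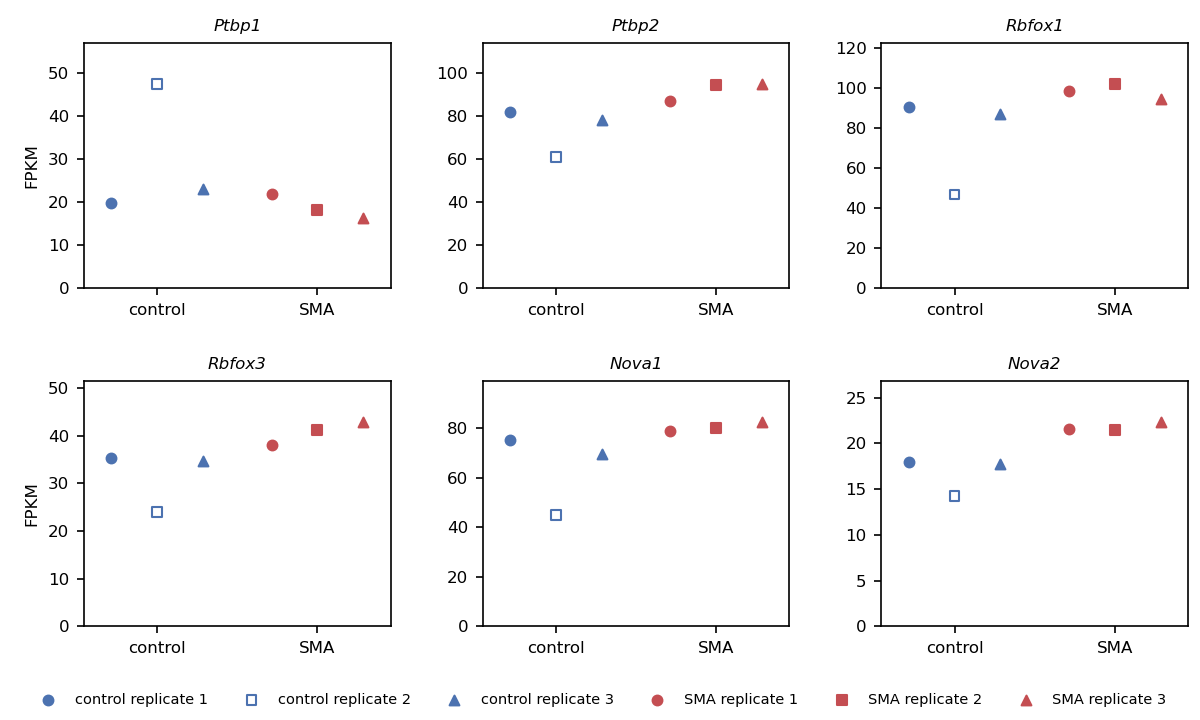
FPKM per library of Ptbp1, Ptbp2, Rbfox1, Rbfox3, Nova1 and Nova2 (first identifier), with each axis starting at 0. Blue is control, red is SMA, and the open square is control replicate 2. For the 5 neuronal genes the open square is the lowest point and the red points lie above the filled blue ones by a small margin, while for Ptbp1 the open square is the highest point and the red and filled blue points overlap.

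Ptbp1 was highest in control replicate 2. Its FPKM was 19.7, 47.5 and 23.0 in control and 22, 18.2 and 16.3 in SMA libraries. Control replicate 2 held over 2 times the level of any other library, and the remaining libraries of both groups overlapped. The log2 fold change was -0.56 (SE 0.32, unadjusted p = 0.125) over 6 libraries and -0.18 (SE 0.13, unadjusted p = 0.189) without control replicate 2. The ratio of Ptbp2 to Ptbp1 was 4.15, 1.28 and 3.39 in control and 3.97, 5.21 and 5.84 in SMA libraries, so that SMA replicate 1 lay below control replicate 1. The third paralog, Ptbp3, which is best known from blood-forming cells and was named after its values were seen, was likewise highest there, at 15.1, 32.3 and 12 FPKM in the controls and at 12.7, 10.9 and 11.0 FPKM in the SMA libraries. The files give Ptbp1 a locus shared with 4 other genes, among them the neutrophil protease gene Prtn3 (1.16, 6.35 and 1.49 FPKM in control, 0.683, 1.45 and 1.68 FPKM in the SMA libraries) and the neuronal gene Plppr3 (61.5, 43.3 and 70.4 FPKM in control, 79.5, 77.3 and 79.5 FPKM in the SMA libraries), both named after their values were seen. The part of hepatic, blood and dividing cells in the level of Ptbp1 in control replicate 2 was not tested.

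Neuron markers had a smaller median difference than the neuronal members in both comparisons, which was not tested. The 8 neuron markers, led by Stmn2, had a median log2 fold change of 0.28 over 6 libraries and of 0.03 without control replicate 2, against 0.38 and 0.21 for the 6 rows of the neuronal members (Ptbp2, Rbfox1, Rbfox3, Nova1 and Nova2), and 0.37 and 0.20 with the first Nova2 row alone. Without control replicate 2 the markers ranged from -0.16 to 0.15 and these 5 members from 0.14 to 0.27, so that the ranges met. Tubb3, a marker with all SMA libraries above all controls, was at 0.43 and 0.12 in the 2 comparisons. Stmn2 was at 459, 235 and 416 FPKM in the controls and at 426, 468 and 459 FPKM in the SMA libraries. Summed over the 5 neuronal members, with the first Nova2 row, FPKM was 301, 191 and 287 in control and 324, 339 and 337 in SMA libraries. As a percentage of the summed neuron markers this was 15.8, 17.9 and 15.4% in control and 17.7, 17.1 and 17% in SMA libraries. The SMA libraries lay above control replicates 1 and 3 and below control replicate 2 in this percentage. The part of neuronal content in the differences of the neuronal members was not tested further.

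**Figure D3:**
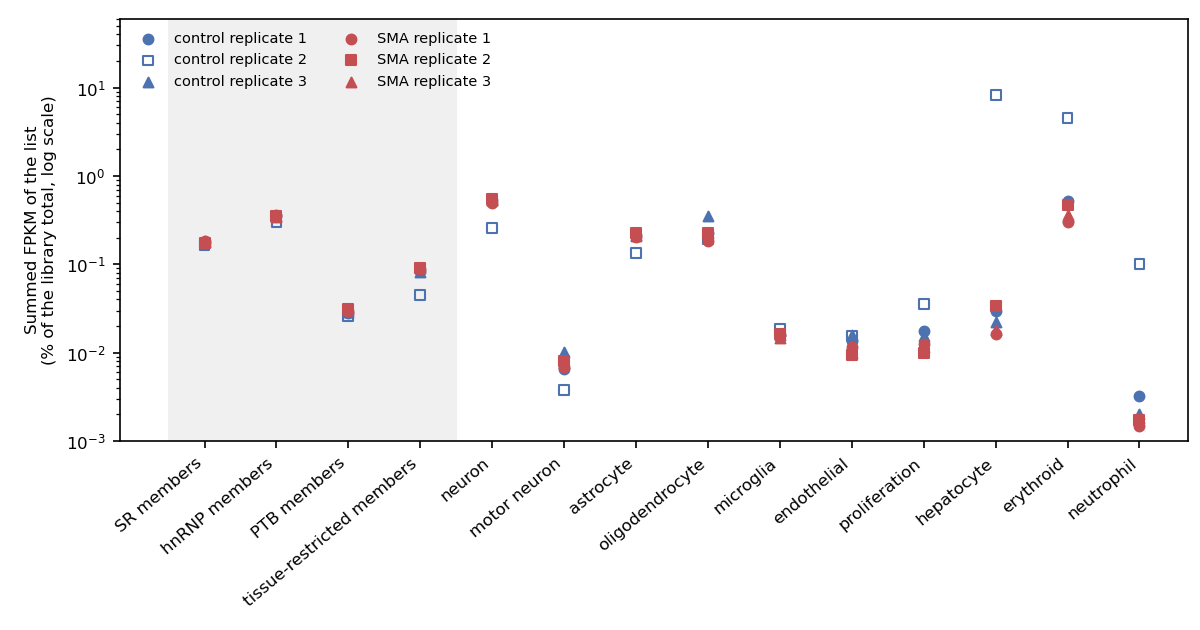
Summed FPKM of member groups (shaded) and of cell marker lists, as a percentage of the FPKM of each library, on a log scale. Blue is control, red is SMA, and the open square is control replicate 2. SR and hnRNP members nearly coincide over the libraries. In control replicate 2 the tissue-restricted members and the neuron, motor neuron and astrocyte markers lie below the other libraries, and hepatocyte, erythroid, neutrophil and proliferation markers lie above them.

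Over all members and 6 libraries, Nova2 and Ptbp2 were higher in SMA by limma at an unadjusted p under 0.05 and none was lower, that is 2 and 0 of 41 rows, where the background was 3.40% and 2.39% of genes tested. None had an adjusted p under 0.05 after Benjamini-Hochberg, as for all genes tested (0%), with 0.683 as the smallest adjusted p in limma. No member passed an unadjusted p under 0.05 together with a fold difference over 2, thresholds that the study applied to another test, and 0.170% of genes tested did. All SMA libraries lay above all controls for 9 rows and below for 1, where the background was 10.3% and 6.67%. The median log2 fold change was 0.06, against 0.04 over all genes tested, and 28 of 41 rows were above 0 (68.3%, against 58.0%). Median ratio scaling lowered this to 23 of 41 rows (56.1%) with a median of 0.0080, and all genes tested to 49.3% with a median of -0.0044. Scaling to the same total raised it to 31 of 41 rows (75.6%, median 0.09), against 61.1% of all genes tested (median 0.06). The 6 rows of neuronal members were above 0 under each of the 3 scalings tried. Without control replicate 2, 6 rows were higher and 1 was lower at an unadjusted p under 0.05 (background 5.27% and 5.20%), and 12 rows lay wholly above and 5 wholly below the 2 remaining controls (background 14.2% and 13.9%). The smallest adjusted p of a member in that limma comparison was 0.300, for Nova2, after Benjamini-Hochberg, and 0.0121% of all genes tested passed an adjusted p under 0.05.

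These counts depended on single libraries. The higher members numbered 6 without control replicate 1, 6 without control replicate 2, 2 without control replicate 3, 1 each without SMA replicate 1 or 2, and 0 without SMA replicate 3. The background of genes called higher moved as well: in the same order it was 6.03, 5.27, 6.07, 1.39, 1.49 and 1.25% of genes tested. Nova2 was in each of the counts above 0, with an unadjusted p of 0.0519 without SMA replicate 3 and of 0.0547 after scaling to the same total. Ptbp2 had an unadjusted p of 0.0525 without control replicate 3, 0.0753 without SMA replicate 1, 0.124 without SMA replicate 2 and 0.127 without SMA replicate 3. By limma it was 0.114 after scaling to the same total (log2 fold change 0.35). With the replicate number as a block it was 0.0865 (0.33). Without control replicate 1, the second Nova2 row passed an unadjusted p under 0.05 with a log2 fold change of 1.16, the only case of a member past 2-fold among the settings tried. The exact permutation test over the 6 libraries gave Nova2 and Ptbp2 p = 0.1, the smallest that 3 against 3 libraries allow.

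For most members the intervals bound the difference between the groups, as far as the spread of these libraries measures it. Whether that spread covers separate mice cannot be read from the labels. Over 6 libraries, the 95% confidence interval lay within 1.5-fold of no difference in both directions for 31 of 41 rows, 12 of them among the 13 SR and 15 among the 17 hnRNP genes, against 54.8% of all genes tested. Without control replicate 2 it did so for 40 of 41 rows, against 78.9% of genes tested, and the exception was the second Nova2 row. The members are more abundant than most genes tested, and no such share was computed for genes of like level.

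**Figure D4:**
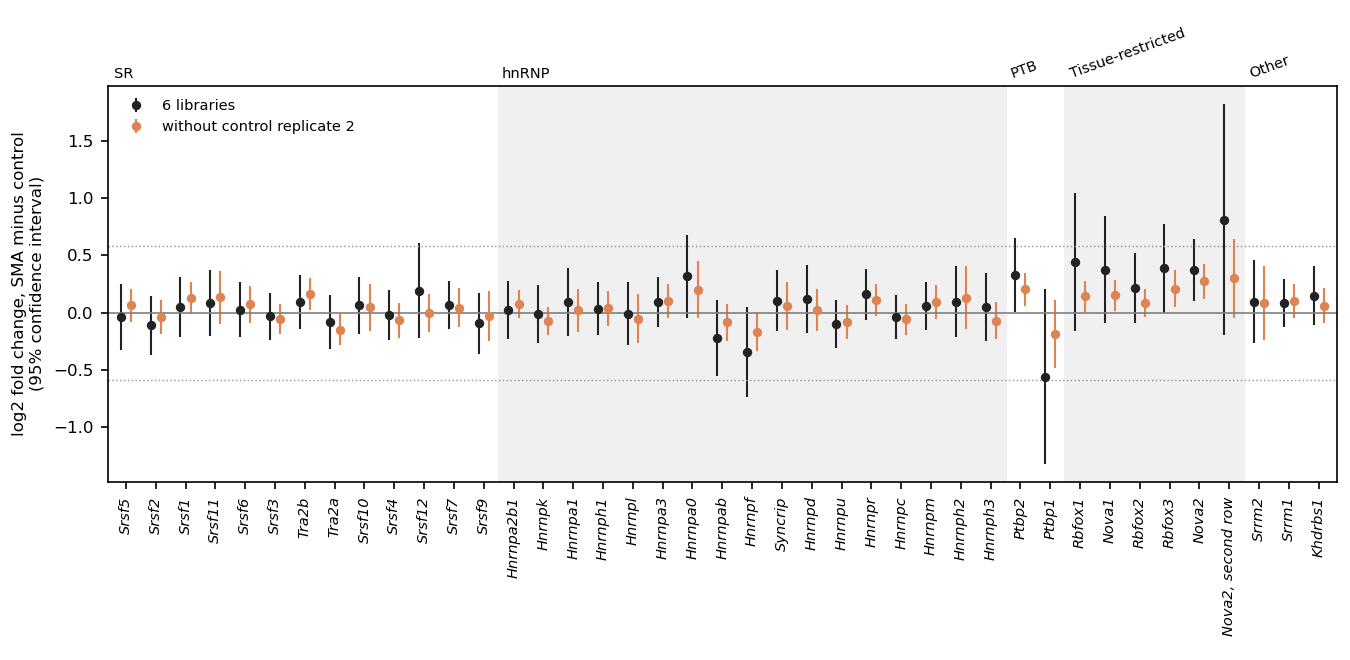
Log2 fold change of every member, SMA minus control, with its 95% confidence interval from limma. Black is the comparison of 6 libraries and orange the one without control replicate 2, and the dotted lines mark 1.5-fold in both directions. Most SR and hnRNP intervals span 0 within the dotted lines. The tissue-restricted members and Ptbp2 lie above 0, nearer to it in orange than in black.

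Regulators of SMN2 exon 7 were compared as a group, since both genotypes carry that gene. The list held 10 members: Srsf1, Srsf9, Tra2b, Hnrnpa1, Hnrnpa2b1, Hnrnpm, Hnrnpr, Syncrip, Khdrbs1 and Ptbp1. Khdrbs1, a STAR-family protein that favours skipping of the exon, was at 27.7, 24.0 and 30.3 FPKM in the controls and at 29.7, 30.1 and 31.2 FPKM in the SMA libraries, with overlap. Its log2 fold change was 0.15 (SE 0.11, unadjusted p = 0.216), and 0.06 (SE 0.07) without control replicate 2. Hnrnpr and Syncrip, close paralogs, had means of 34.7 ± 2.52 and 38.8 ± 0.531 FPKM and of 43.6 ± 5.36 and 46.7 ± 0.900 FPKM in control and SMA libraries (SD, n = 3 each), with control means of 35.9 and 45.1 FPKM without control replicate 2. The log2 fold changes over 6 libraries were 0.16 (SE 0.09) and 0.10 (SE 0.11), with unadjusted limma p of 0.127 and 0.379. Without control replicate 2 they were 0.11 (SE 0.06) and 0.06 (SE 0.09). For Hnrnpr every SMA library was above every control in both comparisons, as for 10.3% and 14.2% of all genes tested, and the groups overlapped for Syncrip. None of the 10 was lower or higher over 6 libraries at an unadjusted p under 0.05 (background 2.39% and 3.40%). Without control replicate 2, Tra2b was higher and none was lower (background 5.27% and 5.20%). The median log2 fold change was 0.08 over 6 libraries and 0.07 without control replicate 2, against 0.04 and 0.0016 over all genes tested. In both comparisons 8 of the 10 were above 0 and 2 below (58.0% and 50.4% of all genes tested were above). Wholly above the controls lay 1 and 4 of the 10 (background 10.3% and 14.2%), and wholly below 0 (6.67% and 13.9%). The list mixes genes described to act on inclusion and on skipping, so its median gives no direction for the exon. The ratio of Hnrnpa1 to Hnrnpa2b1 was 0.796, 0.559 and 0.669 in control and 0.709, 0.688 and 0.708 in SMA libraries, with the lowest value in control replicate 2 and the SMA values inside the control range.

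**Figure D5:**
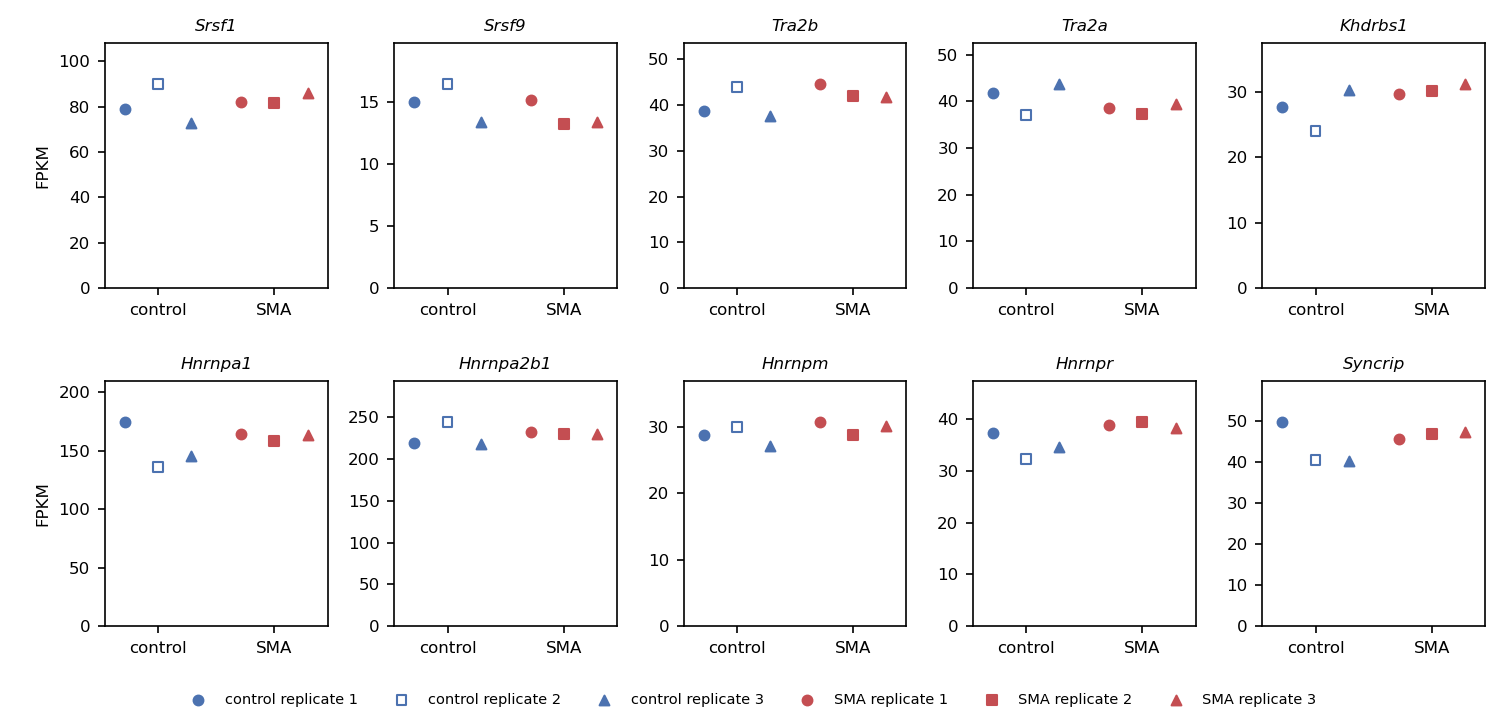
FPKM per library of 9 of the 10 listed regulators of SMN2 exon 7 (Ptbp1 is drawn with the neuronal genes) and of Tra2a beside its paralog Tra2b, with each axis starting at 0. Blue is control, red is SMA, and the open square is control replicate 2. The red points lie within or next to the spread of the blue ones in all panels, and for Hnrnpr above all of them. For Tra2b they lie above and for Tra2a below the filled blue points, with the open square on the red side.

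Genes around the members were measured for context, and the counts below stand beside the same background of genes called, 2.39% lower and 3.40% higher over 6 libraries and 5.20% and 5.27% without control replicate 2. Of 8 kinases and import factors of SR proteins, the most abundant were Clk1, Srpk2 and Clk4, with means of 48.8, 37.8 and 36.7 FPKM. None of the 8 passed an unadjusted p under 0.05 over 6 libraries. Without control replicate 2, the nuclear kinases Clk1 (0.16) and Clk4 (0.20) were higher and the mainly cytoplasmic kinase Srpk1 (-0.20), named after its values were seen, was lower at that threshold. Over 6 libraries, Clk1 was at 0.12, Clk4 at 0.13 and Srpk1 at -0.04. Of 22 other tissue-restricted regulators, led by Qk, Celf2 and Celf4 (146, 82.5 and 76.2 FPKM), 21 were tested over 6 libraries, and Celf5, named after its values were seen, was higher (log2 fold change 0.39, SE 0.14, unadjusted p = 0.0276) and none lower. For Celf5 the unadjusted p was 0.0757 after scaling to the same total and 0.0634, 0.0824 and 0.0909 without control replicate 1, SMA replicate 1 and SMA replicate 3. Of 19 tested without control replicate 2, Celf4 (0.16) and Celf5 (0.27) were higher and none lower. Over 6 libraries, Celf4 was at 0.36 (SE 0.18, unadjusted p = 0.0847 by limma). None of 17 further hnRNP-like genes, led by Matr3, Sfpq and Tia1, passed in either comparison. Of 10 SR-related genes, led by Rbm39, Son and Luc7l2, none passed over 6 libraries, and without control replicate 2 Acin1 (0.15) was higher and Rbm25 (-0.18) lower. Of 15 factors of the U1 and U2 particles and the 3′ splice site, led by Sf3b1, U2af2 and Sf1, none passed over 6 libraries, and without control replicate 2 Sf3b2 (0.14) and U2af1 (0.33) were higher. Acin1, Rbm25, Sf3b2 and U2af1 were named after their values were seen. Over 6 libraries they were at 0.15, -0.14, 0.21 and 0.15, in that order. The medians of the 5 lists ranged from -0.01 to 0.16 over 6 libraries and from -0.01 to 0.05 without control replicate 2, against 0.04 and 0.0016 over all genes tested.

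Annotated transcripts of the members differed by role. Many SR and hnRNP genes limit their own level through exons that bring a premature stop codon. In GENCODE M21, 25 of the 40 members (62.5%) had at least 1 transcript annotated as a target of nonsense-mediated decay, against 27.2% of the 14363 protein-coding genes tested. These were 11 of 13 SR genes, 9 of 17 hnRNP genes, both PTB genes, Srrm1, Srrm2 and Khdrbs1, and 0 of the 5 tissue-restricted genes. A retained-intron transcript was annotated for 28 members (70.0%) against 56.1%, and the median number of transcripts was 9.5 against 5. Gene-level FPKM does not separate these transcripts. In the files, 17 of the 41 rows had a locus given also to other genes, such as Srsf2 with Mfsd11, Jmjd6 and Mettl23, and Syncrip with Snx14. Whether overlapping genes drew on the same reads is not stated.

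RefSeq promoter windows (GRCm38.p6) were found for 38 of the 40 members, Khdrbs1 and Rbfox2 being absent from the table. They gave 52 windows of 200 bases, from 250 to 51 bases before a transcript start, some of them overlapping windows of the same gene. Median GC content was 62.0%, against 51.5% over all 32851 windows, and the median count of CpG was 17 against 4. Searched on both strands, the GC box GGGCGG was present in 59.6% of member windows and 24.6% of all windows, CCAAT in 40.4% and 28.4%, TATAAA in 1.92% and 9.14%, and the E-box CACGTG in 1.92% and 4.34%. Each motif was searched by itself, so that matches of different motifs may overlap. Shown are windows of the most abundant member, Hnrnpa2b1, and of members with an unadjusted p under 0.05 by limma in either comparison. Of the latter, windows that overlap an annotated exon were left out. None of these members had an adjusted p under 0.05, and a link between promoter sequence and level was not tested. All are written 5′ to 3′ on the strand of the gene, with motif matches of either strand in capitals (CCGCCC and ATTGG are GGGCGG and CCAAT on the other strand). The windows of Hnrnpa2b1 (chr6:51469896-51470095, minus strand), Nova2 (chr7:18925638-18925837, plus strand), Tra2a (chr6:49264103-49264302, minus strand), Tra2b (chr16:22266056-22266255, minus strand) and the first of Rbfox1 (chr16:5884543-5884742, plus strand) are intergenic in GENCODE M21. The second window of Rbfox1 (chr16:7069585-7069784, plus strand) and that of Rbfox3 (chr11:118761092-118761291, minus strand) lie in introns of their own genes. The locus listed with the FPKM of Rbfox1 is chr16:6809222-7412479, so that its first window lies far upstream of the locus measured and its second inside it.
Hnrnpa2b1: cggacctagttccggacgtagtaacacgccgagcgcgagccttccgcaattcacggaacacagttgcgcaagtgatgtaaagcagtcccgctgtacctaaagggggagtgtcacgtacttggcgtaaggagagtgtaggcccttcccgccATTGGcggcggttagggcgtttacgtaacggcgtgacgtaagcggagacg
Tra2a: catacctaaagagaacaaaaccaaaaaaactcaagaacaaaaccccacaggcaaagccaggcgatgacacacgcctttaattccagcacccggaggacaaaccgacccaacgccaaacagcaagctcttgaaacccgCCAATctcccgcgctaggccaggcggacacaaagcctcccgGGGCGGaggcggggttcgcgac
Tra2b: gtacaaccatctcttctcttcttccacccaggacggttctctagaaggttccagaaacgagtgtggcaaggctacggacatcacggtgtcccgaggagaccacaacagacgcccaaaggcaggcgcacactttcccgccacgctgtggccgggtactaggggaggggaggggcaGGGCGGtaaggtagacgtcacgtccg
Nova2: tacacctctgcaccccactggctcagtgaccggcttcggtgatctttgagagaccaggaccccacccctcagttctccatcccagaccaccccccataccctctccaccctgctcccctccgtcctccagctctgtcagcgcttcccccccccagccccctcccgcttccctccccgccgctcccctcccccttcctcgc
Rbfox3: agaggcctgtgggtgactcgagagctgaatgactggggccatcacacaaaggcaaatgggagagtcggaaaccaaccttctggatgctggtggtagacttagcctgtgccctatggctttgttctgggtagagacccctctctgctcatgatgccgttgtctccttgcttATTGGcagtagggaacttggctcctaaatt
Rbfox1, first window: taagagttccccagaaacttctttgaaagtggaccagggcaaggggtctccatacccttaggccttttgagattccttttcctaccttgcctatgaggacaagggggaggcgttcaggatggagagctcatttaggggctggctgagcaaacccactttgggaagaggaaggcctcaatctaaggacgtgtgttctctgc
Rbfox1, second window: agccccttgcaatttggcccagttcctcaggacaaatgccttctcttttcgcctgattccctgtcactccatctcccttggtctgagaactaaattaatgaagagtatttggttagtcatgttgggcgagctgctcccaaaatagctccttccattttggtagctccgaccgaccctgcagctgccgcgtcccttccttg
Tra2a and Tra2b each hold a GC box match in these windows and Tra2a also a CCAAT match, Rbfox3 and the window shown for Hnrnpa2b1 hold a CCAAT match, and Nova2 and both Rbfox1 windows hold none of the 4 motifs. The windows of Ptbp2 and Nova1 overlap annotated exons and are therefore not printed. That of Ptbp2 holds 6 GC box matches and that of Nova1 none of the 4 motifs. A second window of Hnrnpa2b1 (chr6:51469945-51470144, minus strand), which overlaps the one shown and is not printed, also overlaps no exon and holds none of them. A match is a run of letters and not evidence of binding.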

How the data were processed

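Whole spinal cord was profiled at postnatal day 4 as 3 libraries of SMA and 3 of control mice, after removal of ribosomal RNA and with strand-specific libraries. FPKM is the unit of all deposited values, obtained by the authors with hisat2 and cufflinks. The submitters' processing notes give mm10, while tool versions and annotation are not stated. Each file lists only genes above 0, and an absent gene was set to 0 FPKM. Genes whose mean FPKM reached 0.5 were compared on log2(FPKM + 1) by lmFit and eBayes of limma 3.58.1 (R 4.3.3), with a variance trend and without covariates; p-values are two-sided, with Benjamini-Hochberg adjustment over all genes tested. For each left-out library, genes were selected and p-values adjusted anew. The procedure was tested on simulated data, where 58% of genes changed by a log2 of 0.5 and 93% of those changed by 1 were recovered. The simulated spread came from the libraries other than control replicate 2, and genes extreme in that library were left out. Recovery with the spread of all 6 libraries was not measured. Single members also had an exact permutation test in SciPy 1.17.1.

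The study states a count test (DESeq), which needs read counts that the files do not hold. Read depth is unknown for the same reason. Depth relative to SMA replicate 1, read from the commonest ratio between values below 0.15 FPKM, was 1.13, 1.09 and 1.03 for the controls and 1, 1.01 and 0.986 for the SMA libraries. No interval for counting error could be computed.

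The members and lists were chosen with earlier results of these data known. FPKM per library was printed for members with an unadjusted p under 0.05 over 6 libraries or without control replicate 2, for the most abundant member of each role, for main SMN2 exon 7 regulators and for neuronal members with Ptbp1. Of other lists, the 3 genes with the highest mean were named, of marker lists at most 3. One further list that was measured is not reported here. Other genes are marked as named after their values were seen. Alternatives were a pseudocount of 0.1, no filter, a minimum mean of 1 FPKM, scaling to the same total, median ratio scaling, quantile normalization, the replicate number as a block and leaving out each library. Median ratio scaling together with no control replicate 2 was chosen after seeing the data. The single-cell data of the study were not used.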

Additional observations from a re-analysis of the deposited data

How the results depend on the processing

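With 3 libraries a group and no read counts, differences of the size seen here rest on the spread of few libraries. The members called lower numbered 0 in the comparison of 6 libraries and 0 to 1 over the settings that leave out 1 library (1 without control replicate 2 and 1 without control replicate 3, where 5.20% and 4.16% of all genes tested were lower), and 2 with median ratio scaling and no control replicate 2 (5.41%), a setting chosen after seeing the data. The members called higher numbered 2 (3.40% of all genes tested), 3 each with a pseudocount of 0.1 (3.40%), median ratio scaling (3.10%) and quantile normalization (3.74%), 0 after scaling to the same total (1.97%), 0 to 6 when 1 library was left out (1.25 to 6.07%) and 6 with median ratio scaling and no control replicate 2 (5.06%). With the replicate number as a block there was 1 higher member (Nova2) and 0 lower, against 2.08% and 1.77% of all genes tested. Whether the numbers pair the libraries could not be settled. Same-numbered libraries had correlations of deviations from the group means of -0.037, 0.016 and 0.077. Control replicates 1 and 2 did not correlate best with their own number, and control replicate 3 did. The control mean in this check includes control replicate 2, which stands apart, so that a pairing could be hidden. Members past the study's thresholds numbered 0 throughout, except 1 without control replicate 1 (range 0 to 1). By limma, genes with an adjusted p under 0.05 over all genes tested numbered 0 to 2 when 1 library was left out (2 without control replicate 2), 1 with median ratio scaling and no control replicate 2, and 0 under the other settings. Before adjustment, 409 of all genes tested were lower with p below 0.05 and 581 were higher, against 387 and 336 after scaling to the same total and 567 and 529 after median ratio scaling. The median log2 fold change of members moved from 0.06 to 0.0080 after median ratio scaling, that of all genes tested from 0.04 to -0.0044, and the former was 0.05 to 0.07 when 1 library was left out. The cause of these changes was not tested, beyond the change in scaling or in libraries itself.

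Log2 fold changes of some single genes changed sign. In the comparison of 6 libraries these were from -0.089 to 0.096, except Srsf12 (0.19) and U2af1 (0.15). After median ratio scaling they were -0.034 for Hnrnpa2b1, -0.022 for Hnrnph1, -0.034 for Srsf6, -0.0075 for Srsf1 and -0.0056 for Hnrnph3. After quantile normalization they were -0.0082 for Srsf6 and 0.015 for Hnrnpk. After scaling to the same total they were 0.016 for Hnrnpl, 0.015 for Hnrnpk and 0.0037 for Srsf4. With median ratio scaling and no control replicate 2 they were -0.071 for Hnrnph3, 0.060 for Srsf5 and -0.0040 for Srsf12. When 1 library was left out, the ranges were -0.0032 to 0.078 for Hnrnpa2b1, -0.063 to 0.092 for Hnrnpl, -0.017 to 0.13 for Srsf1, -0.071 to 0.029 for Hnrnpk, -0.068 to 0.030 for Srsf4, -0.025 to 0.18 for Hnrnph2, -0.20 to 0.048 for Srpk1, -0.035 to 0.33 for U2af1, -0.20 to 0.014 for Smn1, -0.017 to 0.070 for Hnrnph1, -0.088 to 0.063 for Srsf5, -0.048 to 0.074 for Srsf6, -0.019 to 0.21 for Srrm2, -0.024 to 0.15 for Srsf11, -0.069 to 0.13 for Hnrnph3 and -0.0010 to 0.30 for Srsf12. The cause was not tested. The other members kept their sign in all settings.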

Other observations

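Markers of other cells of the cord were measured beside the members, where the background of genes called was 2.39% lower and 3.40% higher over 6 libraries and 5.20% and 5.27% without control replicate 2. Of 5 endothelial markers, 2 were lower at an unadjusted p under 0.05 over 6 libraries and 2 without control replicate 2, none was higher, and the median log2 fold changes were -0.54 and -0.42. The most abundant, the tight-junction gene Cldn5, was at 25.8, 20.4 and 25.0 FPKM in the controls and at 16.4, 15.7 and 14.4 FPKM in the SMA libraries, with no overlap. Of 6 proliferation markers, 2 were lower over 6 libraries and 4 without control replicate 2, with median log2 fold changes of -0.95 and -0.43. In both comparisons, 5 of the 6 lay wholly below the controls (background 6.67% and 13.9%). Over 6 libraries, 1 of them was past the study's thresholds (background 0.170%). Pcna was at 33.4, 53.2 and 29.3 FPKM in the controls and at 24.6, 20.9 and 23.8 FPKM in the SMA libraries. Of 7 oligodendrocyte markers none passed over 6 libraries, and 2 were lower without control replicate 2, with a median of -0.39. Mbp, the most abundant of them, was at 458, 445 and 695 FPKM in the controls and at 375, 457 and 466 FPKM in the SMA libraries. Of 6 astrocyte markers, Aldoc was higher in both comparisons (log2 fold change 0.48, SE 0.19, and 0.29, SE 0.09), and without control replicate 2 another was lower. None of 6 microglia markers passed in either comparison, and of 4 motor neuron markers tested, of 5 listed, Slc5a7 was lower without control replicate 2 (-0.34, SE 0.14), after -0.01 (SE 0.29) over 6 libraries. The motor neuron markers went both ways, with 2 of 4 above 0 in either comparison, among them Slc18a3 (0.45, SE 0.26, and 0.20, SE 0.18, without control replicate 2). None of the 8 neuron markers passed over 6 libraries, and 1 was higher without control replicate 2. Of the hepatocyte, erythroid and neutrophil markers none passed over 6 libraries, while 10 of 11, 7 of 7 and 3 of 7 had a mean of at least 0.5 FPKM in the other 5 libraries; without control replicate 2, 1 erythroid and 1 neutrophil marker were lower. The adjusted p of all these markers in limma was above 0.05 after Benjamini-Hochberg.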
